A study of Mus musculus with 158 samples.

Results

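Transcripts of 6 NMDA receptor subunit genes (Grin1, Grin2a, Grin2b, Grin2c, Grin2d and Grin3a) were followed through single mouse brain cells. They were taken by gene symbol, which found all 6 among the 21956 gene rows of the count table, a rule that uses no measured value. The table held 158 libraries, each made from polyA RNA of an untreated cell that had been drawn into a patch pipette and amplified in 3 rounds of antisense RNA (aRNA) synthesis. Libraries taken to be repeats of the same cell (9 pairs) were summed, which left 149 cells in 6 groups. From primary cultures came 86 cortical astrocytes, 13 cortical neurons and 8 hippocampal neurons, and from acute slices came 22 cortical neurons, 15 neurons of hippocampal field CA1 and 5 of field CA3. Most astrocytes, 70, were taken at day 12 of culture, with 3 at day 7, 5 at day 14 and 8 at day 15. Of the cortical neurons in culture, 3 were taken at each of days 6, 10 and 15 and 4 at day 13, and the hippocampal neurons at day 15. The strain was C57/BL6/N, except for C57/BL6 in the hippocampal cultures and the 7-day astrocytes. The labels give neither an animal, a litter or a culture for any cell nor an animal's age, so each group counts as 1 sample. All values below therefore describe these cells, without a test between groups, and intervals cover counting error only.

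NMDA receptors are glutamate-gated cation channels that also need a co-agonist, glycine or D-serine, and that pass current once depolarisation lifts their magnesium block. Each channel is an assembly of several subunits in which GluN1, the product of Grin1, is obligatory. GluN2 subunits (Grin2a to Grin2d) bind glutamate and set the kinetics of the channel. GluN3 subunits (Grin3a) bind glycine and lower calcium entry and magnesium block. In the developing forebrain GluN2B is present early and GluN2A is added as circuits mature; this exchange is known as the subunit switch. GluN2C is best known from cerebellar granule cells, GluN2D from early development and interneurons, and GluN3A from early postnatal neurons.

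The 6 genes lie on 6 chromosomes, all on the minus strand of GRCm38 (GENCODE M21). Grin1 spans chr2:25291181-25319187, Grin2a chr16:9567898-9995560, Grin2b chr6:135713233-136173511, Grin2c chr11:115249169-115267243, Grin2d chr7:45831883-45878378 and Grin3a chr4:49661611-49845744. How far reads could be assigned to the wrong subunit bears on the levels below. Over whole transcripts, the longest exact run shared by any pair was 34 bases, between Grin2b and Grin2c, and for pairs with Grin1 or Grin3a it was 13 to 17 bases. For the counting, the strand setting is not given in the sources used here. Antisense gene Grin1os overlaps Grin1 on the opposite strand, Kdelr1 overlaps Grin2d on the opposite strand, and Ppp3r2 lies within Grin3a on the same strand. Whole gene spans were compared, not exons, so whether reads of Grin1 and Grin1os, for instance, were kept apart is not known here. The transcript models differ in length: the longest coding models of Grin1, Grin2a and Grin2b have 4276, 14634 and 24060 bases, and the shortest compared have 3809, 4395 and 7484. Which 3′ end the authors' counting used is not given, and aRNA libraries favour 3′ ends, so that levels of different subunits are compared per kilobase, once, below. Shares of Grin2a in the counts of Grin2a and Grin2b are not corrected for length and are compared between groups and cells only.

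Depth ranged from 535369 to 38680739 counts per library, and cells of slices were shallower (group medians of 4125369 to 5744561 counts) than cultured ones (10649012.5 to 15369172). A subunit was called detected in a cell that kept 5 or more counts when its library was thinned at random to 1000000 counts, a depth that 1 CA1 neuron did not reach. The labelled types were checked against their markers. Of the 14 neuron markers, the median cell had 53.6% to 92.9% detected in the 5 neuron groups and 14.3% in the astrocytes. All 86 astrocytes had, of the 12 astrocyte markers, a larger share detected than of the neuronal ones. So did 3 of the 13 cultured cortical neurons and 4 of the 22 cortical slice neurons. Summed levels of 8 microglia markers had a median per cell of 501 CPM (counts of a gene per 1000000 counts of the cell) in cortical slice neurons and 181 CPM in CA1 neurons, against 1.02 CPM or less in the other groups.

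Grin1, the obligatory subunit, was found in 32 of 62 neurons but in 0 of 86 astrocytes. This allows a share of up to 3.49%, taking 3 cells as the limit, or 4.20% as the upper end of the exact 95% interval. Its highest astrocyte held 1.94 CPM, and 73 of the 86 had no count. The cultured hippocampal neurons were the group with Grin1 in every cell: their values ran from 37.4 CPM through a median of 85.7 to 210 CPM. In the cultured cortical neurons, by contrast, 5 of 13 cells had no count, the median was 8.42 CPM and the highest cell held 284 CPM, with 7 cells detected (53.8%, exact 95% binomial interval 25.1 to 80.8). Cortical slice neurons had a median of 1.35 CPM and a highest value of 264 CPM, with 7 of 22 detected. CA1 neurons had a median of 5.79 CPM and 8 of 14 detected, and their spread was the widest, from 0 in 6 cells to 3891 CPM in 1. The CA3 neurons held 0, 0.133, 3.86, 111 and 155 CPM. As levels of summed counts, Grin1 stood at 206 CPM in CA1 (exact 95% Poisson interval 203 to 209), 103 in hippocampal cultures, 91.1 in cortical cultures, 58.2 in CA3, 22.8 in cortical slices and 0.0565 in astrocytes. A single cell supplied 58.5% of the CA1 counts, and without it the CA1 level was 88.2 CPM, below that of the hippocampal cultures. That cell had 3 of 14 neuron markers at the common depth, but they summed to 13686 CPM, the highest sum in CA1. Its excitatory markers summed to 7496 CPM, also the highest in CA1, and it had 0 of 12 astrocyte markers. In cortical cultures 1 cell supplied 51% of the Grin1 counts, and without it the level was 53.4 CPM, below that of CA3. The cells of each neighbouring pair of neuron groups in this order overlapped.

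**Figure D1:**
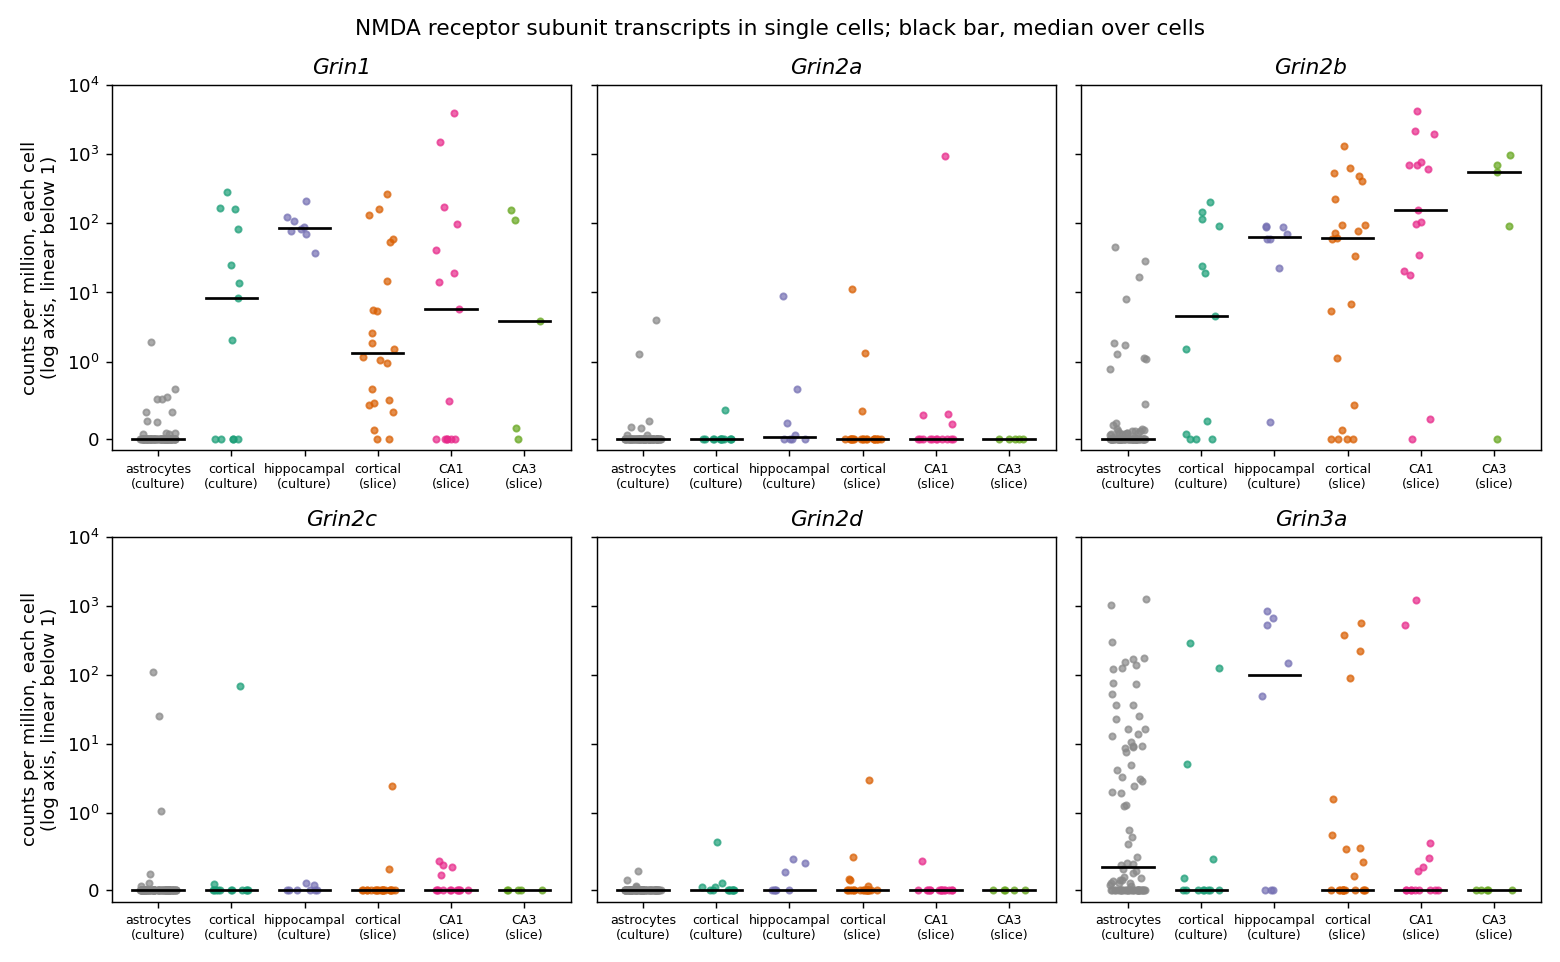
CPM of each subunit in each of 149 cells (points, vertical log axis that is linear below 1), by group, with the median over cells as a black bar. Grin1 is at or near 0 in astrocytes and present in all 8 cultured hippocampal neurons, Grin2b is spread over all 5 neuron groups, Grin2a and Grin2c stand out in single cells, and Grin3a is high in part of the astrocytes.

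Grin2b passed the detection rule in 45 of 62 neurons (72.6%) and 5 of 86 astrocytes (5.81%, interval 1.91 to 13.0), in which the highest cell held 46 CPM. Detection was 7 of 13 in cortical cultures, 7 of 8 in hippocampal cultures, 15 of 22 in cortical slices, 12 of 14 in CA1 and 4 of 5 in CA3. The cultured neurons had medians of 4.58 CPM (cortical, highest cell 204) and 64 CPM (hippocampal, from 0.215 to 89.9). Slice neurons reached further up, to 1321 CPM in cortex (median 60.7) and 4221 CPM in CA1 (median 155). The CA3 neurons held 0, 91.7, 542, 693 and 960 CPM, so 3 of these 5 cells lay above every cultured neuron. Summed, the order was CA1 (577 CPM), CA3 (265), cortical slices (244), hippocampal cultures (68.8), cortical cultures (57.9) and astrocytes (1.34). Neighbouring neuron groups in this order overlapped, and CA3 and cortical slices differed by less than the spread of their cells.

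Per kilobase of the longest coding transcript, Grin1 stood at 48.1 and Grin2b at 24 CPM per kilobase in CA1, and at 21.3 and 2.40 in cortical cultures. With the shortest models instead, the CA1 levels were 54 for Grin1 and 77.1 for Grin2b, so the order of these subunits in CA1 depends on the model used. It also rests on a single cell, which supplied 58.5% of the CA1 Grin1 counts. Without that cell the CA1 Grin1 level was 88.2 CPM before division by length, which puts Grin1 below Grin2b with either model. In cortical slices Grin2b was higher than Grin1 with either model (10.2 against 5.34, and 32.6 against 5.99 CPM per kilobase), and in both cultures Grin1 was higher with either model.

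Grin2a, the subunit of mature synapses, was rare. It was detected in 2 of 62 neurons (3.23%, interval 0.393 to 11.2) and in 1 of 86 astrocytes, which held 3.94 CPM. One CA1 neuron carried 4447 of the 4451 Grin2a counts of its group, at 952 CPM, beside 766 CPM of Grin2b and no count of Grin1. The same cell held 4751 CPM of Sst, the interneuron peptide somatostatin, and 662 CPM of Gad1, a GABA-synthesising enzyme. The other 14 CA1 neurons together stood at 0.0547 CPM. The second neuron with Grin2a was a cortical slice cell with 11.2 CPM, which had 3 of 14 neuron markers and a summed level of 5055 CPM of microglia markers; the part of these in its Grin2a value was not tested. Among cultured neurons, Grin2a had 4 counts in all cortical cells together, and 118 of the 124 counts of the hippocampal group came from 1 cell (8.78 CPM), which had 3 counts at the common depth and so was not called detected. No CA3 neuron had a count.

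Grin2c and Grin2d were also rare. Grin2c was detected in 1 of 62 neurons, a cortical cell of 15 culture days with 1694 counts (68.3 CPM), and in 2 of 86 astrocytes, at 112 and 25.6 CPM. That neuron also held 19 CPM of Grin2b, 167 CPM of Grin1 and 970 CPM of Gad1. Its value sums a pair of libraries taken as one cell from a shared title prefix and similar counts, which the labels do not state; the libraries held 60.2 and 100.2 CPM of Grin2c. Outside this cell Grin2c had at most 5 counts in any neuron. Grin2d passed the detection rule in none of the 62 neurons and none of the 86 astrocytes, and its highest cell was a cortical slice neuron with 17 counts (3.07 CPM). For the 62 neurons a count of 0 cells allows a share of up to 4.84%, again taking 3 cells as the limit.

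Grin3a, the glycine-binding subunit, was the only one of the 6 detected in more than 5 astrocytes. It was detected in 28 of 86 astrocytes (32.6%, interval 22.8 to 43.5) and in 13 of 62 neurons (21%, interval 11.7 to 33.2). Astrocyte values ran from 0 in 30 cells to 1037 and 1257 CPM in the top cells, with a median of 0.300 CPM. By age, Grin3a was detected in 0 of 3 astrocytes of 7 days, 21 of 70 of 12 days, 4 of 5 of 14 days and 3 of 8 of 15 days. The 12 astrocyte cells with the highest Grin3a had 2 to 4 of the 14 neuron markers, and none had Grin1 at the common depth. Across the 86 astrocytes the rank correlation of Grin3a was 0.121 with the summed neuron markers, 0.195 with the summed astrocyte markers and 0.199 with the total counts. GluN3A needs GluN1 to reach the cell surface, so the transcript alone does not stand for a receptor.

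Among neuron groups the summed level of Grin3a was highest in the hippocampal cultures. Their cells held 0, 0, 0, 50.4, 152, 532, 669 and 833 CPM, so that 5 of 8 cells were detected and 3 had no count. Gad1 was detected in all 8, and the 10 inhibitory markers summed to 9487 to 23690 CPM per cell, so these cells are of the inhibitory kind by their markers. Cortical slice neurons had 4 of 22 detected (90.7, 225, 384 and 559 CPM), CA1 2 of 14 (533 and 1224 CPM) and CA3 0 of 5. The labels do not explain the letters in the titles of the cortical slice cells: Grin3a summed to 185 CPM in the 5 cells titled F (2 detected) and to 5.29 CPM in the 16 titled P (1 detected). Per cell, it was 0, 0.539, 0.723, 384 and 559 CPM in F, and in P 90.7 CPM in 1 cell and 1.62 CPM or less in the others. The F cells had 3 to 5 of the 10 inhibitory markers detected, with Gad1 at 18.9 to 8713 CPM. The P cells had 0, except 1 cell with 3 and 1 with 1. The P cell at 90.7 CPM had 6 of 8 excitatory and 0 of 10 inhibitory markers. So had the cell at 225 CPM, titled neither F nor P, 5 of 8 and 0 of 10. The part of these markers in Grin3a was not tested. In cortical cultures 2 of 13 were detected, at 128 and 292 CPM, and both cells were among the 3 with a larger detected share of the astrocyte list than of the neuron list. The cell at 292 CPM had 10 of 12 astrocyte and 9 of 14 neuron markers, summing to 3131 and 1371 CPM, and the cell at 128 CPM had 10 of 12 and 11 of 14, summing to 6686 and 10742 CPM. Without those 3 cells no cultured cortical neuron had Grin3a detected; the part of the astrocyte transcripts in the value was not tested. Over all neurons Grin3a was detected in 8 of 26 cells with Gad1 (30.8%, interval 14.3 to 51.8) and in 5 of 36 without it (13.9%, interval 4.67 to 29.5). Those intervals overlap, and the median depth differed (8630607 against 5736361 counts). Of the 8 neurons with both Gad1 and Grin3a, 5 were the cultured hippocampal ones.

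**Figure D2:**
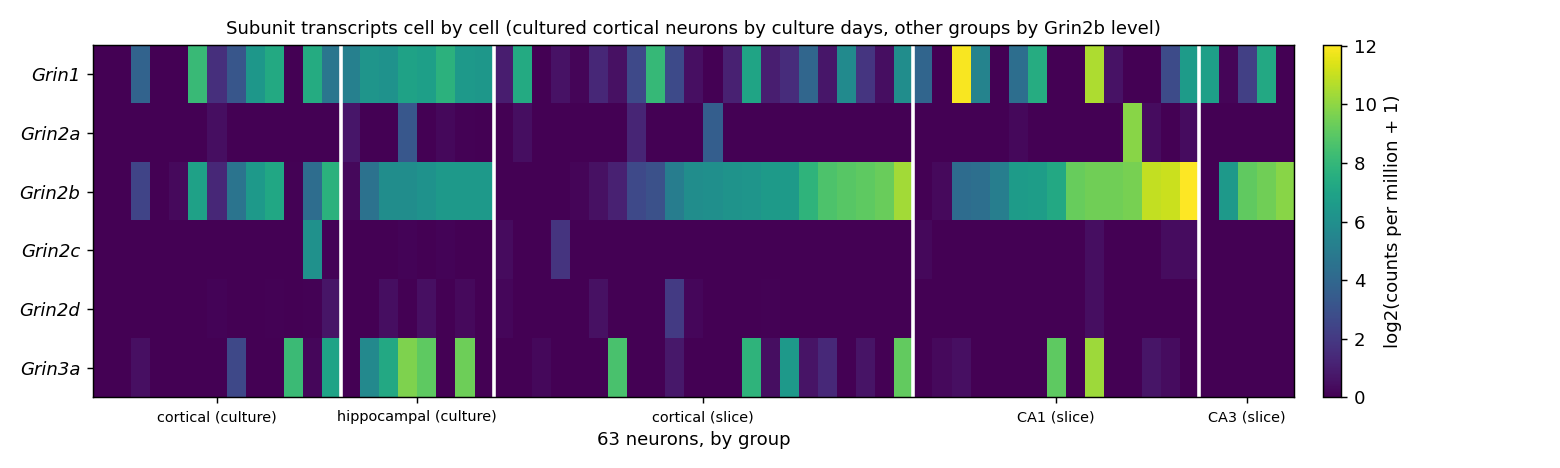
Colour gives log2(CPM + 1) of the 6 subunits (rows) in each of 63 neurons (columns), with cultured cortical neurons ordered by culture days and the other groups by their Grin2b level. The high Grin2a value of 1 CA1 neuron and the high Grin2c value of 1 cultured cortical neuron stand apart from cells at or near 0. Grin3a is detected in 5 cultured hippocampal neurons and in some cells of cortical cultures, cortical slices and CA1, with its highest value in a CA1 neuron (1224 CPM).

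A receptor needs GluN1 with a partner, so the subunits were also read together in each cell. At the common depth 11 of 62 neurons had none of the 6 subunits detected, 19 had 1, 22 had 2 and 10 had 3. Grin1 together with a Grin2 gene was detected in 28 neurons (45.2%, interval 32.5 to 58.3), and in all 28 the Grin2 genes included Grin2b. Another 17 neurons had a Grin2 gene without Grin1, 4 had Grin1 alone and 13 had neither. In the cultured cortical neurons the genes went together in every cell: 7 had both and 6 had neither. In cortical slices, by contrast, 9 of 22 neurons had a Grin2 gene without Grin1, and in CA1 5 of 14 did. Of the 13 neurons with Grin3a, 9 had Grin1 and 11 had Grin2b, whereas the 28 astrocytes with Grin3a all lacked Grin1 at this depth. A missing transcript in a cell means fewer than 5 counts at the common depth, not absence.

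**Figure D3:**
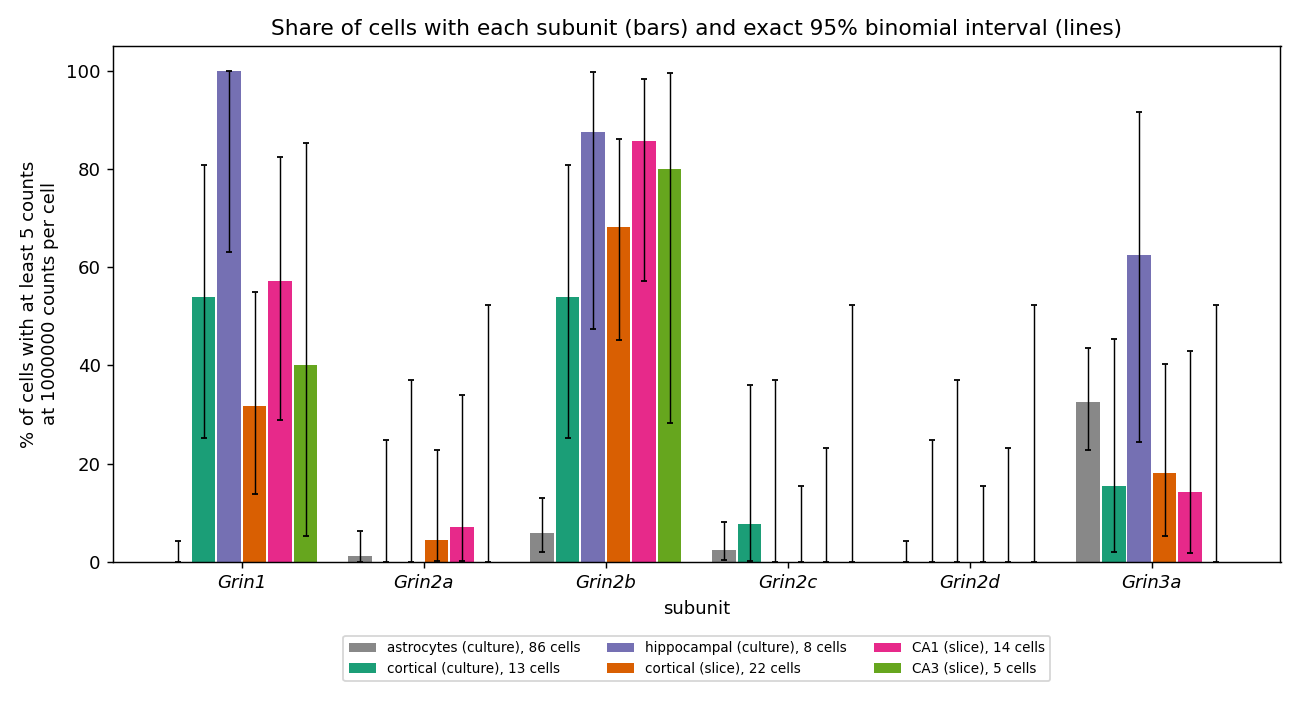
Percent of cells with at least 5 counts of each subunit after thinning to 1000000 counts, by group, with exact 95% binomial intervals. Grin1 is detected in 8 of 8 cultured hippocampal neurons and 0 of 86 astrocytes, Grin2b in 53.8% or more of the cells of every neuron group, and Grin3a in 32.6% of astrocytes.

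Neurons with and without Gad1, a marker of inhibitory cells, were set side by side. Grin1 was detected in 18 of 26 neurons with Gad1 (69.2%) and in 14 of 36 without it (38.9%), and Grin2b in 22 of 26 and 23 of 36. The direction was not shared by all groups: in cultured cortical neurons Grin1 was detected in 6 of 7 with Gad1 and 1 of 6 without, but in CA1 in 1 of 4 with Gad1 and 7 of 10 without. A cell with Gad1 was not always inhibitory by its other markers. In the 4 CA1 cells, excitatory against inhibitory markers summed to 7496 against 22.9, 3482 against 749, 3302 against 10375 and 142 against 10683 CPM. Grin1 was detected in the first of these. The 26 neurons with Gad1 included all 8 cultured hippocampal neurons, each with Grin1 detected. Of the cultured cortical neurons, the 6 without Gad1 included the 3 with a larger detected share of the astrocyte list. They also included the 2 cells of 6 days that had no count of any subunit. Median depth in the cultured cortical neurons was 23921622 counts with Gad1 and 12948482 without. The part of depth, group or cell kind in the difference was not tested.

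The groups were then compared in pairs. A gene was called higher or lower where the log2 ratio of (CPM + 1) was at least 1 in size both in summed counts and in the mean over cells, and the share of cells with the gene detected differed the same way. The rule is one of size, with no test, and the share of all measured genes it called is given as the background. Several pairs share a group, so they are not independent of each other.

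Neurons and astrocytes of cortical cultures differed in 3 of 6 measured subunits, all higher in neurons, where 13.8% of all genes were called higher. Grin1 was 91.1 against 0.0565 CPM (log2 ratio 6.45), Grin2b 57.9 against 1.34 CPM (4.65) and Grin2c 8.10 against 1.87 CPM (1.66). The Grin2c difference came from 1 neuron and 1 astrocyte: without the highest cell of each group the log2 ratio was -0.55. No subunit was called lower in neurons, against 26.3% of all genes. Grin3a was 35.4 CPM in neurons and 48.5 CPM in astrocytes (log2 ratio -0.44) and was not called. One neuron supplied 75.6% of the neuronal Grin3a counts, and without it the level was 9.50 CPM. Without the 3 neurons of larger astrocyte-list share, Grin3a was called lower in neurons (log2 ratio -4.64), where 32% of all genes were called lower.

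Slice and cultured cortical neurons differed in the opposite way for the 2 subunits called. Grin2b was higher in slices, at 244 against 57.9 CPM (log2 ratio 2.06), the 1 of 6 subunits called higher, with a background of 12.9%. Grin2c was the 1 subunit called lower, with a background of 33.5%, and the call ended without the single 15-day neuron that carried it (log2 ratio 0.011 without the highest cells). Grin1 stood at 22.8 CPM in slices and 91.1 CPM in cultures, a log2 ratio of -1.95 in summed counts but -0.81 in the mean over cells, and was not called. With only the libraries whose bases were called with the later program, bcl2fastq2 (v2.17; the others are v1.8.4), the Grin2b log2 ratio was 0.96. One slice cell held 42.8% of the slice Grin2b counts, and the slice level without it was 152 CPM. Excitatory neuron markers summed to 954 CPM in slices and 140 CPM in cultures (6 of 8 called higher, 0 lower), inhibitory markers to 2293 and 2931 CPM (1 of 10 higher, 5 lower) and microglia markers to 1385 and 98.3 CPM (7 of 8 higher, 0 lower). The part of this difference in cell kind in the Grin2b value was not tested.

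Among slice neurons, CA1 held more of 3 subunits than cortex, where 15.6% of all genes were called higher and 30.7% lower (0 of 6 subunits). Grin1 stood at 206 against 22.8 CPM (log2 ratio 3.12), and at 2.48 without the highest cell of each group. Grin2b stood at 577 against 244 CPM (log2 ratio 1.24), and the ratio was 0.58 in v1.8.4 libraries alone. The Grin2a ratio of 5.00 was that of 1 CA1 cell and became 0.017 without the highest cells. Microglia markers summed to 4527 CPM in CA1 and 1385 CPM in cortical slices, and their part in these values was not tested.

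CA3 was lower than CA1 in 3 of 4 measured subunits, with 34.9% of all genes called lower and 20.4% higher (0 subunits). Grin1 was 58.2 against 206 CPM (log2 ratio -1.81), but -0.91 without the highest cells. Grin2a and Grin3a had no count in CA3, so that they were at least 523-fold and at least 877-fold lower, taking 3 counts in all CA3 cells together as the floor. Of these, the Grin2a value again rested on 1 CA1 cell and the Grin3a value on 2. Grin2b (265 against 577 CPM) was not called. Cell kind differed too: inhibitory markers summed to 0.510 CPM in CA3 and 1880 CPM in CA1 (7 of 7 measured lower). Microglia markers summed to 289 and 4527 CPM (7 of 8 lower). Gad1 was detected in 0 of 5 CA3 and 4 of 14 CA1 cells. Of the 2 CA1 cells with Grin3a, 1 held 6295 CPM of Gad1 and the other 3.39 CPM. The part of these differences in the subunit values was not tested.

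In culture, the summed levels of hippocampal over cortical neurons gave log2 ratios of 0.18 for Grin1 and 0.25 for Grin2b, which turned to -0.13 and -0.06 under edgeR and DESeq2 scaling. The cells differed more than these sums: the median was 85.7 against 8.42 CPM for Grin1 and 64 against 4.58 CPM for Grin2b. Detection was 8 of 8 against 7 of 13 cells for Grin1 and 7 of 8 against 7 of 13 for Grin2b, and the log2 ratio of the mean over cells was 0.79 and 0.34. Neither gene met the rule. Grin3a was the subunit called higher in hippocampal neurons (371 against 35.4 CPM, log2 ratio 3.35), with a background of 27.2%. Restricted to 15-day cells the ratio was 1.53 and the call ended, with Grin3a detected in 5 of 8 hippocampal and 2 of 3 cortical cells. Grin2c was called lower (background 11.6%), again from the 1 cortical cell. CA1 slice neurons set against hippocampal cultures had Grin2a higher (background 4.85%), from the 1 CA1 cell, and Grin3a lower (95.9 against 371 CPM, background 47.1%), of 5 measured subunits. The Grin3a call ended with edgeR scaling factors (log2 ratio -0.81), which shifted all ratios of this comparison by 1.14. Grin2b was 577 against 68.8 CPM (log2 ratio 3.05) but was detected in 12 of 14 against 7 of 8 cells, and so was not called. Cell kind differed between CA1 and these cultures: excitatory neuron markers summed to 2174 against 83.6 CPM (6 of 8 higher, 0 lower). Inhibitory markers summed to 1880 against 18226.5 CPM (1 of 9 measured higher, 7 lower), and microglia markers to 4527 against 3.22 CPM (8 of 8 higher). The part of this difference was not tested, for the subunits or for the gene lists below.

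Culture age was followed in the 13 cortical neurons, cell by cell. At 6 days 2 of 3 neurons had no count of any subunit, and the third held 13.5 CPM of Grin1, 4.58 CPM of Grin2b and 0.404 CPM of Grin3a. At 10 days a single cell held 284 CPM of Grin1 and 117 CPM of Grin2b, and the other two had no Grin1 and at most 0.230 CPM of Grin2b. At 13 days all 4 cells had counts of both genes, with Grin1 at 2.06, 8.42, 83.1 and 159 CPM and Grin2b at 1.5, 23.8, 91.7 and 145 CPM. The cell with the lowest values passed the detection rule for neither gene. At 15 days Grin1 was 0, 25.3 and 167 CPM and Grin2b 0.0522, 204 and 19 CPM in the same order. Each age overlapped with the next for both genes.

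**Figure D4:**
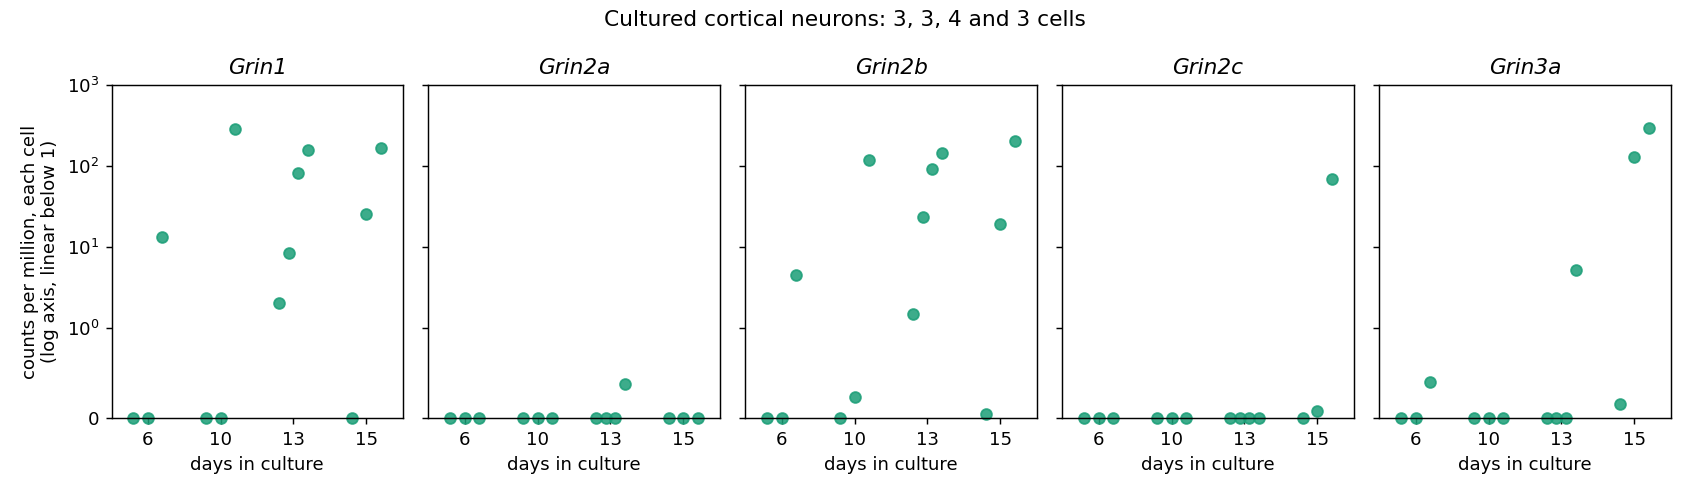
CPM of the subunits in each of 13 cultured cortical neurons against days in culture (points, spread sideways within an age; log axis that is linear below 1). Grin1 and Grin2b are at 0 in 2 of 3 cells at 6 days and above 0 in all 4 cells at 13 days, Grin2a stays at or near 0 at every age, and Grin3a is above 100 CPM in 2 cells of 15 days.

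Between 6 and 15 days, ages whose libraries share a basecalling version, all 3 measured subunits were called higher at 15 days (Grin1 log2 ratio 4.16, Grin2b 4.67, Grin3a 6.86). This stood beside 57.2% of all genes called higher and 5.57% lower (0 subunits), and the median log2 ratio of all genes was 2.48. Between 10 and 13 days, 0 of 2 measured subunits were called either way, with backgrounds of 47.4% higher and 8.68% lower. Without the 10-day cell at 284 CPM both Grin1 and Grin2b were called higher at 13 days, where 71.1% of all genes were. Astrocyte markers summed to 930 CPM at 6 days, 1045 at 10, 1531 at 13 and 3803 at 15 days, and microglia markers to 359 CPM at 15 days against 3.16 or less before. Oligodendrocyte precursor markers summed to 116, 6.56, 248 and 1288 CPM at the successive ages, and oligodendrocyte markers to 0.518, 4.44, 613 and 197 CPM. The part of these markers in the age difference was not tested. Both neurons with Grin3a at 15 days had 10 of 12 astrocyte markers, and the higher one also had 6 of 6 precursor markers (2926 CPM). Without them and the third cell of larger astrocyte-list share none of the 3 calls remained, with 1 cell left at 15 days.

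The share of Grin2a in the counts of Grin2a and Grin2b was compared between groups. Grin2a made up 0.0330% of the counts of both genes in cortical cultures (exact 95% binomial interval 0.00900 to 0.0845), 2.01% in hippocampal cultures, 0.335% in cortical slices and 9.02% in CA1, and it had no count beside 7283 of Grin2b in CA3. In CA1 the share came from the cell with 952 CPM of Grin2a, in which it was 55.4%. Without the cell with the most Grin2a counts, an alternative chosen after seeing the data, the share was 0.00968% in CA1, 0.114% in hippocampal cultures, 0.0164% in cortical slices and 0% in cortical cultures. In each of the 4 groups with any Grin2a count, 1 cell thus carried most or all of the share. By culture age, Grin2a had 0 counts at 6, 10 and 15 days and 4 at 13 days, where its share was 0.0805%. A count of 0 allowed a share of up to 10.3% at 6 days, 0.0917% at 10 days and 0.119% at 15 days (upper exact 95% bounds). Cells with at least 5 counts of Grin2a and Grin2b together numbered 1, 1, 4 and 2 at 6, 10, 13 and 15 days. The bounds at 6 days (34 counts of Grin2b) and 10 days thus rest almost wholly on 1 cell each. No move toward Grin2a with age was detectable in the cells with such counts.

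**Figure D5:**
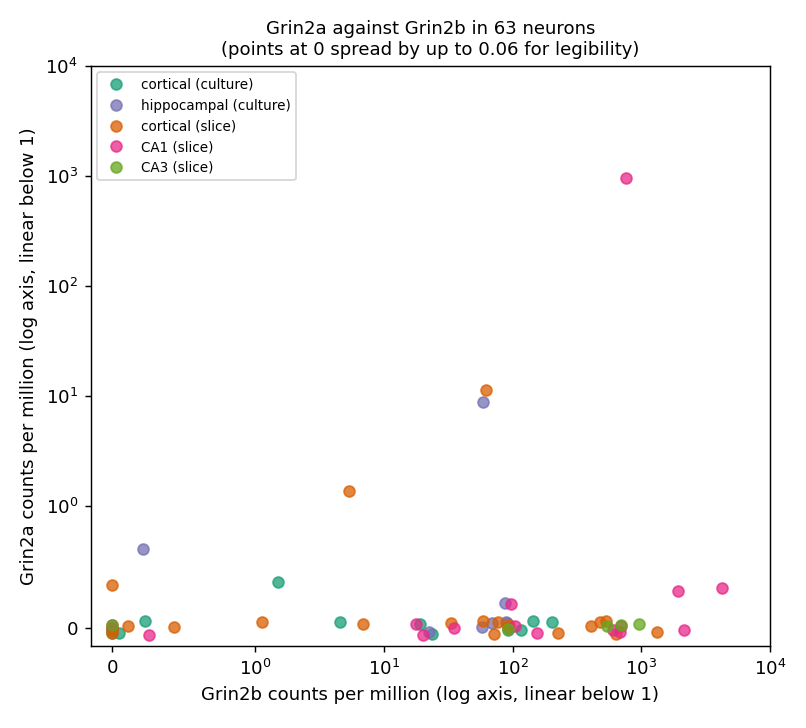
Grin2a against Grin2b in CPM, 1 point per neuron, on log axes that are linear below 1, with points at 0 spread slightly. Nearly all neurons lie along the Grin2b axis, and 1 CA1 neuron with 952 CPM of Grin2a and 766 CPM of Grin2b lies apart.

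Genes that anchor, modify, carry or supply the receptor were read from 4 lists, and all counts follow the size rule above. Of the postsynaptic scaffold genes, 6 of 12 measured were higher in cultured cortical neurons than in astrocytes and 0 lower, with a median log2 ratio of 1.81 against -0.08 over all genes. The background was 13.8% higher and 26.3% lower for each list. Examples were Dlgap3 (51.4 against 0.0165 CPM) and Dlg4, which encodes the scaffold PSD-95 (11.6 against 3.72 CPM). The kinase and phosphatase genes had 7 of 12 higher and 1 lower: Camk2b, a subunit of the calcium/calmodulin kinase that binds GluN2B, stood at 222 against 8.69 CPM, and Camk2d was lower at 30.2 against 140 CPM. Transport and partner genes had 3 of 10 higher and 0 lower. Co-agonist genes had 2 of 11 higher and 3 lower, among them Phgdh, the first enzyme of serine synthesis (6.76 against 19.2 CPM).

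In slice against cultured cortical neurons the background was 12.9% higher and 33.5% lower. The co-agonist list had 0 of 10 higher and 6 lower, with Psat1, a serine synthesis enzyme, at 15.1 against 197 CPM, and a median log2 ratio of -2.30 against -0.24 over all genes. Scaffolds had a median log2 ratio of 1.22, with 1 of 13 higher (Dlgap1, 1673 against 245 CPM) and 1 lower (Dlgap3, 0.138 against 51.4 CPM). Kinases had 2 of 12 higher, with Camk2a at 185 against 26.5 CPM, and 4 lower (median log2 ratio -0.13). Transport genes had 1 of 10 higher and 5 lower (median -0.56).

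CA1 against cortical slices had Camk2a (484 against 185 CPM) and Camk2b (712 against 233 CPM) among 3 of 12 kinases higher, with 4 lower, where the background was 15.6% higher and 30.7% lower. Scaffolds had 2 of 13 higher and 5 lower, transport genes 4 of 10 and 1, and co-agonist genes 1 of 8 and 2. In CA3 against CA1 (background 20.4% higher and 34.9% lower) the scaffold Dlg2 was the 1 of 11 higher (751 against 19.5 CPM, in 4 of 5 against 3 of 14 cells) with 3 lower, the kinases had 3 of 12 higher and 2 lower, transport genes 2 of 9 and 4, and co-agonist genes 0 of 4 and 3. Hippocampal against cortical cultures (background 27.2% higher and 11.6% lower) had 6 of 12 scaffolds higher and 0 lower, among them Shank3 (27.8 against 3.21 CPM), 2 of 12 kinases higher and 1 lower, 4 of 10 transport genes higher and 2 lower, and 0 of 9 co-agonist genes higher and 3 lower. CA1 slice neurons against hippocampal cultures (background 4.85% higher and 47.1% lower) had 0 of 12 scaffolds higher and 6 lower, and 2 of 12 kinases higher, with Camk2a at 484 against 6.56 CPM, and 5 lower. Lin7a, a partner that links GluN2B to its motor, was lower there at 0.783 against 964 CPM, among 3 of 10 transport genes lower and 1 higher, and co-agonist genes had 0 of 8 higher and 5 lower.

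With culture age, 7 of 8 scaffolds, 5 of 10 kinases, 2 of 7 transport genes and 4 of 6 co-agonist genes were higher at 15 than at 6 days and 0 of any list lower, beside 57.2% of all genes higher. The median log2 ratio was 3.76 for scaffolds, 1.99 for kinases, 0.24 for transport genes and 3.82 for co-agonist genes, against 2.48 over all genes. Dlgap1 was 340 against 0.173 CPM. At 13 against 10 days 3 of 10 scaffolds were higher, as were 4 of 12 kinases (2 lower), 3 of 7 transport genes and 3 of 7 co-agonist genes (1 lower). Each of these shares higher was below the 47.4% of all genes, and the medians of 0.56, -0.014, 0.70 and 0.75 in the same order were below the 1.15 of all genes.

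The genes whose levels followed each subunit most closely were ranked by Spearman's rho over 63 neurons among 6486 genes. The neurons share depth and amplification, so these are descriptions. For Grin1 they were Eef1a2 (0.59), Kctd17 (0.59) and Sez6l2 (0.59), for Grin2b Camk1d (0.62), Mll1 (0.55) and the AMPA receptor gene Gria1 (0.54), and for Grin3a Mras (0.55), Dpy19l1 (0.55) and Slc39a9 (0.54). Among the 6 subunits themselves rho ran from -0.12 to 0.26, and it was 0.13 for Grin1 with Grin2b.

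Repeat libraries show the spread of re-sequencing, not that of capture or amplification. Over 10 values past 10 counts in 6 cells whose repeat is matched by title, the CPM of a subunit differed by 1.00-fold to 1.23-fold between the libraries, with a median of 1.06-fold. The pair matched by title prefix and counts, the neuron with Grin2c, differed more, by 1.54-fold in Grin1, 1.26-fold in Grin2b and 1.66-fold in Grin2c.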

How the data were processed

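Single cells from patch pipettes were sequenced after 3 rounds of aRNA amplification. The authors deposited raw counts per gene; rows carry gene symbols. Per the submitters' processing notes, bcl2fastq 1.8.4 or bcl2fastq2 2.17, STAR and HTSeq were used with mm10 (GRCm38); the version, annotation and strand setting of STAR and HTSeq were not given in the sources used here. These 6 genes and all lists were chosen with earlier results of these data known. Repeat libraries were summed (8 pairs by title, 1 by shared title prefix and similar counts). Counts were scaled to CPM per cell and over summed cells, with exact Poisson 95% intervals. Detection means at least 5 counts after thinning to 1000000 counts (seed 7), with exact Clopper-Pearson intervals; PCR reads are not independent molecules, so these cover counting error only. A share of 0 cells is given with the limit of 3 cells and a level of 0 with that of 3 counts. A Grin2a share of 0 is given with its exact upper 95% bound. The size rule took genes with at least 10 counts and a count in 3 or more cells, and a pseudocount of 1 CPM. It was run on simulated data in which changed genes had high counts spread over all cells. That setting differs from subunits carried by a single cell, for which the simulation decides nothing. With 1 sample per group no test was made. Named genes were the 6 subunits, per list and direction up to 2 called genes with the largest difference in detection, and for subunits detected in at least 12 neurons the 3 most alike genes. Some items are not reported here. Alternatives changed scaling (edgeR 4.0.16 and DESeq2 1.42.0 factors, in R 4.3.3), pseudocount, filters, detection rule and cells. Python 3.11.15, pandas 2.3.3 and scipy 1.17.1 were used. Gene positions and transcript lengths came from GRCm38 with GENCODE M21.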

Additional observations from a re-analysis of the deposited data

Results flagged for a closer look

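In 3 of 13 sets of 4 to 10 cells, 1 cell lay far from the others, where chance flags about 1 in 20 sets of normally distributed values. That rate was not checked for CPM of single cells, and it does not hold where all other cells are at 0, as in both 13-day sets. Part of the cells of the hippocampal set were at 0 too. Among 8 cultured hippocampal neurons the highest Grin2a value was 8.78 CPM and the next 0.645 CPM. Among the 4 cortical neurons of 13 days, the highest Grin2a value was 0.375 CPM (4 counts) and the highest Grin3a value 5.19 CPM, in different cells, with the other cells at 0.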

How the results depend on the processing

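Of the counts of subunits called, 178 values stayed within 1.5 times of the main value and 36 moved; of the detection shares, 262 stayed and 26 moved. Of the log2 ratios, 83 stayed within the counting interval, 240 moved beyond it and 8 of called subunits changed sign; of the Grin2a shares, 8 stayed and 16 moved. Replicates have no numbers shared across groups that pair cells. No paired analysis was possible because the labels name no animal or culture and the results come from no test. The alternatives without the highest cells, without the cell with the most Grin2a counts and without hippocampal libraries whose titles end in D were chosen after seeing the data.

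Cortical neurons against astrocytes: 2 subunits were lower with v2.17 libraries (Grin2c log2 ratio -1.52). Without the neurons with a larger share of the astrocyte than the neuron list (astrocyte-list neurons), 1 was lower (Grin3a, log2 ratio -4.64). Without the highest cells 1 was lower, and Grin2c was no longer called (-0.55). Slice against cultured cortex: 2 were higher under TMM, DESeq2, a pseudocount of 0.1 CPM and without the astrocyte-list neurons; 2 were lower in summed CPM alone and with repeat libraries as cells, and 0 with v2.17 (Grin2c 0.099), without the astrocyte-list neurons or without the highest cells (Grin2c 0.011). CA1 against cortex: v1.8.4 libraries gave 1 higher and 1 lower, and Grin2a was no longer called (-0.018). CA3 against CA1: 1 was lower without the highest cells, and 3 to 4 with single cells left out. Hippocampal against cortical cultures: 2 were higher in summed CPM alone, mean CPM alone, with repeat libraries as cells and v2.17, 0 at 15 days only; 0 were lower with v2.17 (Grin2c 0.032) and without the highest cells (Grin2c 0.011). CA1 against hippocampal cultures: 0 were lower under TMM, DESeq2, repeat libraries as cells and v2.17; higher were 2 in summed CPM alone, 3 in mean CPM alone, and 0 with repeat libraries as cells, v2.17 or without the highest cells (Grin2a -0.035). At 15 against 6 days, 0 were higher without the astrocyte-list neurons and without the highest cells, and 2 to 3 with single cells left out. At 13 against 10 days, 1 was lower in summed CPM alone, 2 were higher without the highest cells, and 0 to 2 with single cells left out.

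With at least 1 count, detection was 68.2% for Grin1 in cortical slices, 17.4% for Grin2b and 47.7% for Grin3a in astrocytes. With at least 20 counts Grin2a was 0% in astrocytes and cortical slices and Grin3a 17.4% in astrocytes; at 200000 counts these were 0%, 0% and 19.8%. Without thinning, Grin1 was 5.81% in astrocytes and 63.6% in cortical slices, and Grin3a 50% in astrocytes. With repeat libraries as cells, and with v2.17, Grin2a was 0% in astrocytes; both hold the same 86 astrocyte libraries and differ only by a new random draw. With v1.8.4, Grin1 in CA3, Grin2a in cortical slices and CA1, and Grin3a in CA1 were 0%, and Grin2b was 100% in cortical slices, CA1 and CA3. In cortical cultures Grin2c and Grin3a were 0% with v2.17, and Grin3a 0% without the astrocyte-list neurons. Grin2b was 100% in hippocampal cultures without the D libraries. Leaving out single CA3 cells gave 25% to 50% for Grin1 and 75% to 100% for Grin2b.

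The Grin2a share of both genes became 2.5% by mean of cells and 0% with v1.8.4 or without the astrocyte-list neurons in cortical cultures, and 2.87% without the cell with most counts of both in hippocampal cultures. In cortical slices it was 2.20% by mean of cells, 0.585% without that cell, 0.0217% with v1.8.4 and 0.844% with v2.17. In CA1 these were 4.28%, 12.2%, 0.0124% and 13.4%. Without the cell with the most Grin2a counts, the share was 0% in cortical cultures, 0.114% in hippocampal cultures, 0.0164% in cortical slices and 0.00968% in CA1. The cause of the other moves was not tested.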
